A study of Arabidopsis thaliana and Solanum lycopersicum with 40 samples.

Results

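Aquaporins are membrane channels for water and small neutral solutes, and 27 of the 34075 tomato identifiers in the expression table carried a description of one. A gene was taken as a member when its description contained aquaporin, intrinsic protein PIP, tonoplast intrinsic or plasma membrane intrinsic, in any case, so no measured value entered the choice. By description, 10 members were plasma membrane intrinsic proteins (PIPs), 13 were tonoplast intrinsic proteins (TIPs) and 4 were aquaporins with no subfamily given. Of the 27, 22 reached a mean of at least 1 FPKM (fragments scaled by transcript length and by the mapped fragments of the library) over the 16 tomato libraries and were tested, among 20413 tested genes in all.

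PIPs sit in the plasma membrane and TIPs in the tonoplast, the membrane of the vacuole. In roots, water on its way to the xylem can pass through cells by way of these channels, and aquaporin abundance and gating are known to set part of a root's hydraulic conductivity. In several plant species PIP1 proteins need a PIP2 partner to reach the plasma membrane, while PIP2 proteins are active water channels by themselves. Some TIPs also carry other small solutes, such as ammonia or urea.

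The study followed root transcriptomes of tomato (Solanum lycopersicum) and Arabidopsis over time in shade, and only tomato is described here. All tomato seedlings were cultivar M82, with no transgene or mutation named in the labels, and had grown in white light for 7 days. They then stayed unshaded or were moved to shade, and roots were frozen after 3, 6, 12 or 24 h. Each of the 8 groups of light and time held 2 libraries, numbered 1 and 2, and values below are given in that order. The labels do not say whether these came from separate plants or pools, so p-values measure only the spread between libraries, which may be technical. The spectrum and strength of the shade light are not given in the labels used here. Because the samples are bulk roots, fewer cells of a type and less RNA per cell cannot be told apart.

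The deposited FPKM summed to between 907138 and 1021245 per tomato library. No read counts are given, and absolute depth is unknown. Steps among low values put the depth of the libraries between 0.669 and 1.48 times their geometric mean, with the shaded 3 h libraries at 0.669 and 0.885 and the unshaded 3 h libraries at 1.14 and 0.975. Casparian strip membrane proteins, which mark the endodermis of roots, were all detected (7 of 7 above 0 in every group). Of 38 genes for chlorophyll-binding and small Rubisco proteins, which mark green tissue, 2 were at 0 in all 16 libraries. The summed FPKM of the 38 was 961 to 2317 in unshaded libraries and 575 to 2123 in shaded ones.

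In 2 groups, the 2 libraries differed in the same direction for nearly the whole family. In unshaded roots at 6 h, 20 of the 22 tested aquaporins were higher in library 1 than in library 2, with a median difference of 0.52 on the log2 scale (1.44-fold). At 12 h in unshaded roots it was again 20 of 22, with a median of 0.68 (1.61-fold). Over all tested genes the medians of these differences were -0.01 and 0.05, and 48.3% and 56.3% of genes were higher in library 1. In shaded roots at 24 h, 19 of 22 were higher in library 1, with a median of 0.35. Smaller medians were seen in other groups. In shaded roots 18 were higher in library 2 at 12 h (-0.24) and 17 in library 1 at 3 h (0.23). In unshaded roots at 24 h 17 were higher in library 2 (-0.18). The aquaporins thus deviated together between replicates while genes at large did not. Summed FPKM of the Casparian strip genes was also uneven in 2 of those groups. The lower and the higher library stood at 158 and 231 in unshaded roots at 6 h and at 211 and 320 at 12 h. Which library was the higher one is not given here. With 2 libraries a group, which of them was unusual cannot be told, and what made the unshaded libraries differ was not tested. The 12 h calls are given with and without library 1 of both unshaded groups. These are named below as the unshaded libraries that stood apart.

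**Figure D1:**
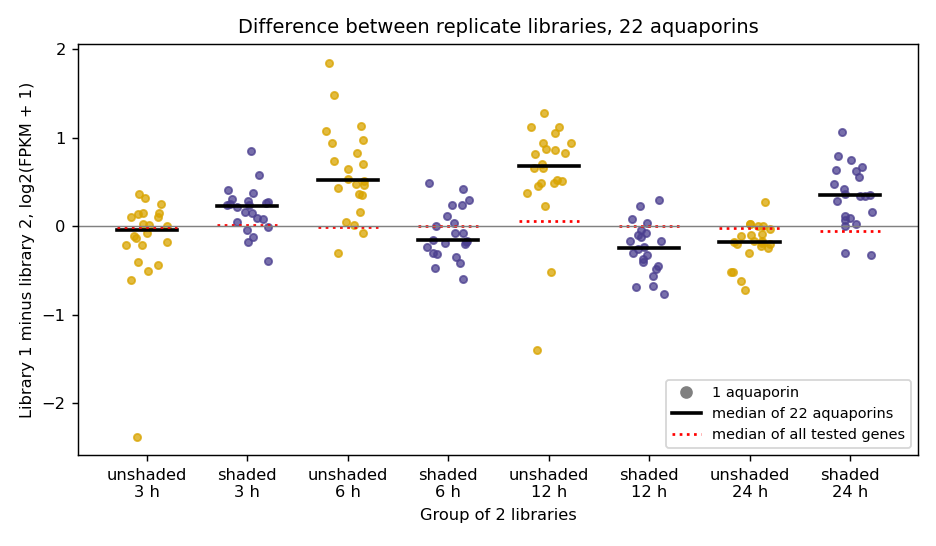
Difference between library 1 and library 2 of each group of light and time, on the log2(FPKM + 1) scale. Each point is 1 of 22 tested aquaporins, the black line is their median and the red dotted line the median of all tested genes. The aquaporin medians lie at 0.52 and 0.68 in the unshaded 6 h and 12 h groups, while the all-gene medians lie at -0.01 and 0.05.

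Aquaporins were among the abundant root transcripts. The family summed to 1.08% to 2.02% of all FPKM in the 8 unshaded libraries (median 1.31%) and to 1.10% to 1.86% in the 8 shaded ones (median 1.41%). At each of the 4 times the summed level of shaded and unshaded libraries overlapped. A few genes made up most of the sum. The 7 members with the highest mean over all 16 libraries, PIP1.5, PIP2.6, TIP1.3, TIP2.1, TIP2.3, PIP1.3 and TIP1.1, held 78.2% to 82.2% of it in unshaded libraries and 80.3% to 90.9% in shaded ones.

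The levels in unshaded roots ran from a pair of very abundant PIPs down to genes at the limit of detection. PIP1.5 (Solyc08g081190.3) had a median of 2623 FPKM over the 8 unshaded libraries and PIP2.6 (Solyc11g069430.2) one of 2319. PIP1.5 exceeded PIP2.6 in 8 of 8 libraries, but their ranges of 2145 to 3996 and 1909 to 3441 overlapped. PIP2.6 was above the next gene, TIP1.1 (Solyc06g074820.3, median 1279), with no overlap. TIP1.1, TIP2.3 (Solyc06g060760.3, 1137) and PIP1.3 (Solyc12g056220.2, 1136) could not be ordered, since each overlapped the next. TIP2.1 (Solyc12g044330.2) and TIP1.3 (Solyc10g083880.2) followed at 744 and 676.

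From PIP2.9 (Solyc10g055630.2), with a median of 438 FPKM, to PIP1.7 (Solyc03g096290.3), with a median of 101, 11 members followed with overlapping neighbours. PIP2.12 (Solyc05g055990.4, 16.4), the aquaporin-like gene Solyc08g077950.1 (16.3) and TIP2.5 (Solyc06g066560.3, 13.1) lay below them with no overlap. TIP3.2 (Solyc03g019820.3) was lowest of the tested genes, with a median of 0.658 and a range of 0.183 to 5.15. TIP3 genes are known in Arabidopsis from the storage vacuoles of seeds.

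The other 5 members were too low to test. TIP1-2 (Solyc04g074620.1) reached 0.552 FPKM in 1 library and was listed at 0 in 13 of 16. PIP2.11 (Solyc02g083510.3) did not exceed 0.129 and TIP5.1 (Solyc03g093230.4) did not exceed 0.0974. TIP5 is known as a pollen aquaporin in Arabidopsis. Of the genes both described as TIP1-3, Solyc11g072935.1 was above 0 in 1 library, at 0.118, and Solyc02g062957.1 was listed at 0 in all 16.

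**Figure D2:**
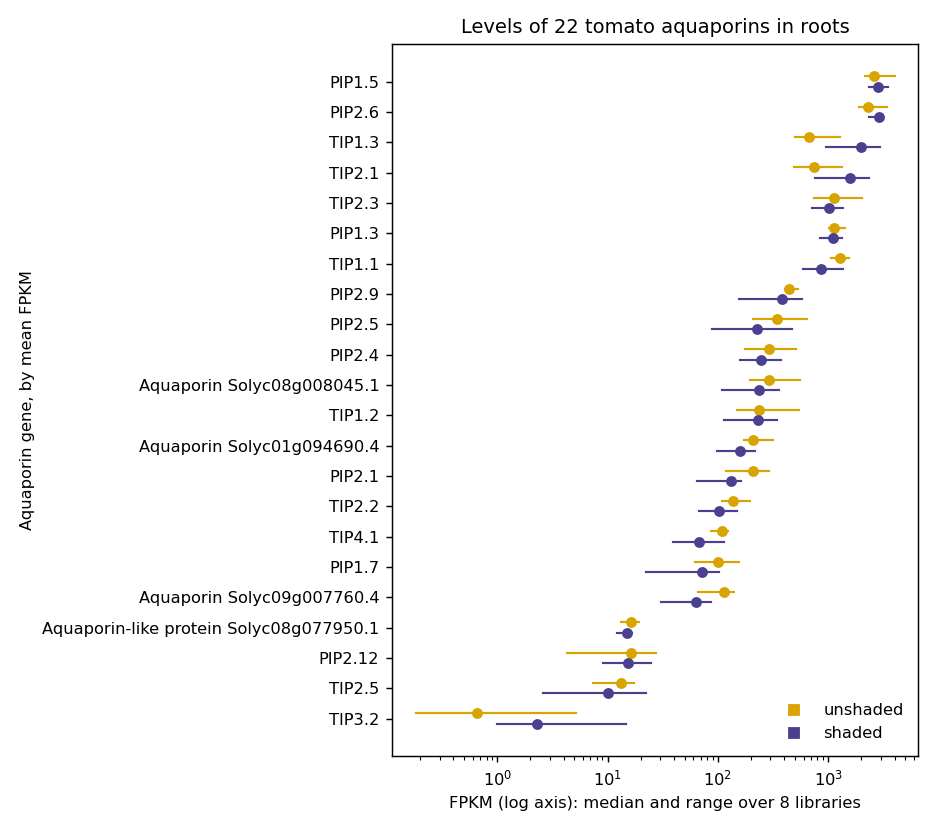
Levels of the 22 tested aquaporins in tomato roots, as the median and range of FPKM over 8 unshaded and 8 shaded libraries, on a log axis. PIP1.5 and PIP2.6 have unshaded medians of 2623 and 2319 FPKM, and TIP3.2 has one of 0.658.

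The aquaporins that passed the test of shade did so at 12 h and 24 h. At 12 h 12 of the 22 tested aquaporins passed the test, 3 higher and 9 lower in shade, and at 24 h 10 did, 2 higher and 8 lower. None passed at 3 h or 6 h. TIP1.3 and TIP2.1 rose, while the PIPs that passed, PIP2.1, PIP2.5, PIP2.9 and PIP1.7, all fell, as did TIP1.1, TIP4.1 and TIP2.2.

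These counts were read against all genes tested with the same limma fit on log2(FPKM + 1), with a threshold of 0.05 on the Benjamini-Hochberg adjusted p. At 3 h 0 of 22 aquaporins and 0.186% of all genes passed (0.113% higher and 0.0735% lower). At 6 h it was 0 of 22 and 1.64% (1.14% and 0.495%). At an unadjusted p under 0.05, 3 aquaporins (13.6%) passed at 3 h and 5 (22.7%) at 6 h, where 9.78% and 14.6% of all genes did. At 12 h 23.9% of all genes passed, 10.6% higher and 13.3% lower. At 24 h 37.3% passed, 15.9% higher and 21.4% lower. The median log2 fold change of the 22 aquaporins was -0.07 after 3 h and -0.02 after 6 h of shade. It was -0.59 after 12 h and -0.39 after 24 h. Over all tested genes the median was 0.03, -0.00, -0.02 and -0.03 at those times. Without both unshaded libraries that stood apart, the 12 h log2 fold change was higher for every tested aquaporin but TIP3.2 and Solyc08g077950.1. The 12 h median of the aquaporins was then less negative.

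Whether the 2 shaded libraries lay wholly above or below the 2 unshaded ones was counted at each time as well. After 3 h of shade 4 aquaporins lay wholly higher, where 24.9% of all genes did, and 6 wholly lower, where 18.6% did. After 6 h the counts were 3 and 5, against 23.2% and 22.2% of all genes. After 12 h they were 3 and 11, against 27.9% and 32.9%. After 24 h they were 5 and 11, against 34% and 38.7%. TIP1.3 and TIP2.1 lay higher at all 4 times, as 4.78% of all genes did, and PIP2.1 lay lower, as 3.44% did.

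Averaged over the 4 times, 12 of 22 aquaporins passed, 3 higher and 9 lower, where 39.2% of all genes passed, 18.2% higher and 20.9% lower. The median average effect was -0.29 over the aquaporins and -0.02 over all genes. The aquaporin median was less negative when both unshaded libraries that stood apart were left out. In all, 9 members passed at both 12 h and 24 h in the same direction, 3 passed at 12 h alone and 1 at 24 h alone. The matching shares of all genes are not given here, so whether this persistence was unusual cannot be told. At single times 23.9% of all genes passed at 12 h and 37.3% at 24 h. The other 9 tested members passed at no time and not in the average.

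The calls at single times rested on few libraries. The share of all genes that passed in every fit with 1 library left out is not given here. At 12 h 7 of 22 members (31.8%) passed when library 1 of unshaded roots at 6 h and at 12 h were both left out, where 21.3% of all genes did. Those that passed were TIP1.3 (log2 fold change 2.27, adjusted p = 0.00335), TIP2.1 (1.32, 0.0048), PIP1.7 (-1.41, 0.00758), TIP1.1 (-0.80, 0.0192), TIP4.1 (-0.93, 0.0198), PIP2.9 (-0.58, 0.0449) and PIP2.1 (-0.68, 0.0485). Without the unshaded 12 h library 1 alone 6 passed (18.7% of all genes), and PIP2.1 did not (adjusted p = 0.0746). Leaving out the shaded 12 h library 1 gave 7 (12.2% of all genes), and leaving out the shaded 12 h library 2 gave 6 (8.84%). TIP1.3, TIP1.1, TIP4.1 and PIP1.7 were the 4 of 12 that passed at 12 h whichever of the 16 libraries was left out. At 24 h the count was 6 of 22 (27.3%) without the unshaded 24 h library 1, 3 (13.6%) without the unshaded library 2 and 6 (27.3%) without the shaded library 1. Over all genes, 23.3%, 19.1% and 16.4% passed in the same fits. TIP1.3, TIP1.1 and PIP2.9 were the 3 of 10 that passed at 24 h in each of these 16 fits. In the average, 11 of 12 passed in all 16, TIP3.2 being the exception. With no filter on low values, PIP2.5, TIP2.2 and Solyc09g007760.4 missed the threshold at 12 h (adjusted p between 0.0557 and 0.059), as did PIP2.1 (0.0622) and TIP2.1 (0.0644) at 24 h. PIP2.1 at 24 h also missed it with median-of-ratios scaling (0.0522). With only the libraries of 12 h in the fit 2 aquaporins (9.09%) passed at that time, where 6.09% of all genes did.

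**Figure D3:**
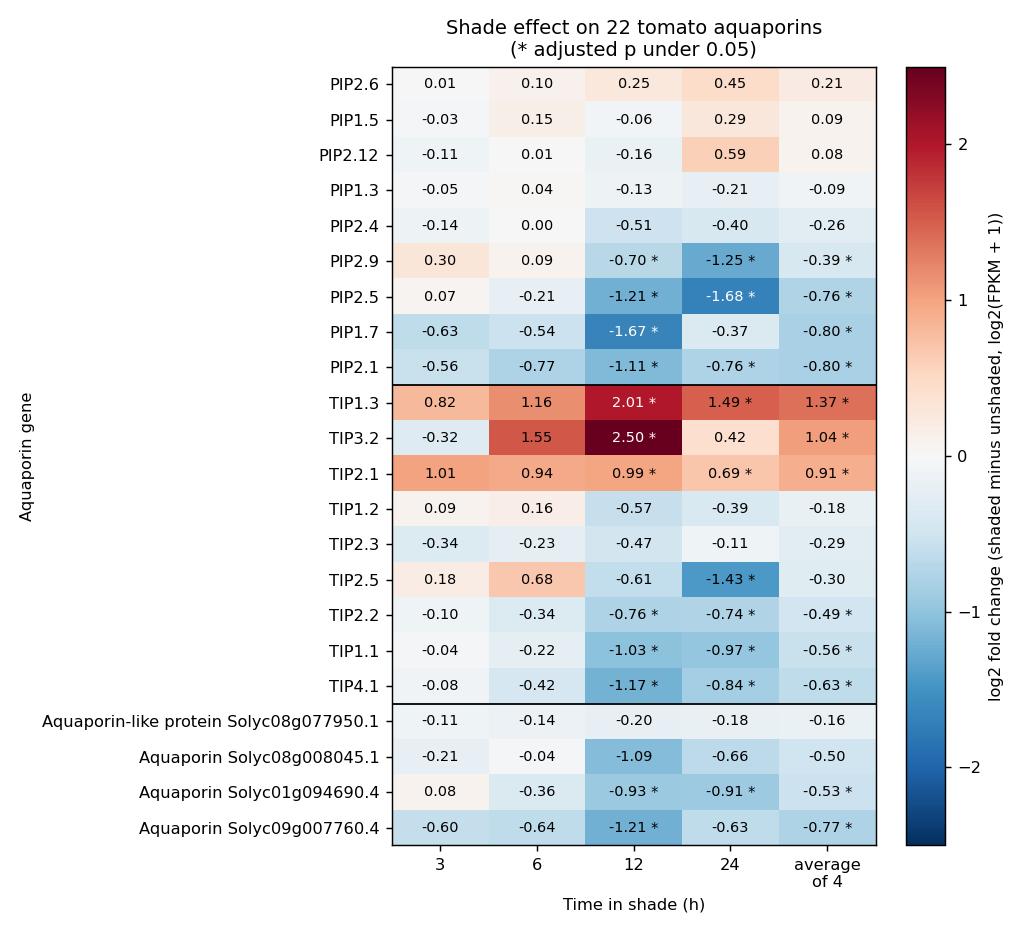
Shade effect on each of the 22 tested aquaporins at 3, 6, 12 and 24 h and averaged over the 4 times, as the log2 fold change of shaded minus unshaded roots on the log2(FPKM + 1) scale. Stars mark an adjusted p under 0.05. No star stands at 3 h or 6 h, 12 stand at 12 h and 10 at 24 h, and most of the starred cells show lower levels in shade.

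Among the PIPs, 4 of the 9 tested passed in the average, all lower in shade, with a median log2 fold change over the 9 of -0.26. Over all genes 39.2% passed in the average, with 20.9% lower in shade. At 12 h 4 fell (median of the 9, -0.51), where 13.3% of all genes fell. At 24 h 3 fell (-0.37), where 21.4% did. Without both unshaded libraries that stood apart, the 12 h values of PIP1.7, PIP2.1, PIP2.5 and PIP2.9 were -1.41, -0.68, -0.64 and -0.58. Those of PIP2.4, PIP1.3, PIP2.12, PIP1.5 and PIP2.6 were 0.02, 0.05, 0.24, 0.27 and 0.50. The median of the 9 was thus no longer negative at 12 h, nor in the average. No PIP passed in the upward direction over all 16 libraries.

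PIP2.9, a PIP2 water channel, had the smallest p in the test of whether the shade effect differed between times. At 3 h it stood at 455 and 409 FPKM in unshaded roots and at 582 and 483 in shaded roots. At 12 h it stood at 528 and 450.0 in unshaded roots and at 293 and 309 in shaded ones. At 24 h the values were 419.7 and 414 in unshaded and 155 and 195 in shaded roots. Shaded libraries were thus above the unshaded ones at 3 h and below them at 12 h and 24 h, and the groups overlapped at 6 h (477 and 427 against 447 and 512).

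For PIP2.9 the log2 fold change was 0.30 ± 0.15 SE at 3 h (adjusted p = 0.554) and 0.09 at 6 h (0.868). It was -0.70 ± 0.15 at 12 h (0.00784) and -1.25 ± 0.15 after 24 h (0.000794). At 24 h its level was 0.419 times the unshaded one. It was the 1 aquaporin of 22 for which the light by time interaction passed (adjusted p = 0.0192), where 6.79% of all genes passed, and 8 aquaporins (36.4%) had an unadjusted interaction p under 0.05, where 28.1% of all genes did. The unshaded 24 h libraries bear on this test: without either of them, or without the unshaded 3 h library 2, no aquaporin passed it.

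PIP2.5 (Solyc10g084120.2), another PIP2, fell at 12 h and 24 h. Its unshaded values were 299 and 296 FPKM at 3 h and 649 and 390.1 at 6 h. They were 451 and 206 at 12 h and 299 and 429 after 24 h. Its shaded values were 293 and 331, then 472 and 400.3, then 111 and 156, and at 24 h 138 and 89.1. The groups overlapped at 3 h and 6 h and were apart at 12 h and 24 h, with shaded roots lower. The log2 fold change was -1.21 ± 0.37 at 12 h (adjusted p = 0.0372) and -1.68 ± 0.37 at 24 h (0.00582), or 0.312 times the unshaded level at 24 h. Without the unshaded 6 h and 12 h libraries that stood apart, the 12 h value was -0.64 and did not pass (0.162).

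PIP2.1 (Solyc09g007770.3) was the 1 aquaporin whose shaded libraries were below the unshaded ones at all 4 times. In unshaded roots it stood at 229 and 206 FPKM after 3 h, 292 and 212 after 6 h, 216 and 118 after 12 h, and 182 and 207 after 24 h. In shaded roots it stood at 161 and 134, then 136 and 156, then 64.4 and 83.4, and at 24 h 129 and 101. The average log2 fold change was -0.80 ± 0.13 (adjusted p = 0.00109), with single values of -0.56 (0.531), -0.77 (0.198), -1.11 (0.0134) and -0.76 (0.0426) from 3 h to 24 h.

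PIP1.7, the 1 PIP1 that passed, had its lowest values in shade at 12 h. At that time it stood at 89.3 and 62.2 FPKM in unshaded and at 23.4 and 22.1 in shaded roots. At 24 h it stood at 66.6 and 71.4 against 67.3 and 41.9. The groups were apart at 3, 6 and 12 h and overlapped at 24 h. The log2 fold change was -1.67 ± 0.24 at 12 h (adjusted p = 0.0013) and -0.37 ± 0.24 at 24 h (0.245), and its average was -0.80 ± 0.12 (0.000633). Between 3 h and 24 h its unshaded level went from 156 and 145 to 66.6 and 71.4, and the test of time in unshaded roots did not pass (adjusted p = 0.135).

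PIP1.5, PIP2.6 and PIP1.3, the most abundant PIPs, did not pass the test of shade over all 16 libraries. PIP1.5 had a median of 2623 FPKM in unshaded and 2813 in shaded roots, with an average log2 fold change of 0.09 ± 0.14 (adjusted p = 0.627). PIP2.6 had medians of 2319 and 2915, with an average of 0.21 ± 0.11 (0.157). At 24 h PIP2.6 stood at 1909 and 2148 in unshaded and 3122 and 2464 in shaded roots, which did not overlap, and its log2 fold change was 0.45 ± 0.22 (0.126). When both unshaded libraries that stood apart were left out, its average was 0.33 and its 24 h value stayed at 0.45. As those libraries were picked by the aquaporin values, that fit is no separate test. PIP1.3 had medians of 1136 and 1101 and an average of -0.09 ± 0.09 (0.489).

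The remaining tested PIPs were PIP2.4 and PIP2.12. PIP2.4 (Solyc06g011350.3) ranged from 177 to 510.4 FPKM in unshaded and from 159.8 to 374 in shaded roots, and its average of -0.26 ± 0.19 did not pass (adjusted p = 0.308). PIP2.12 ranged from 4.25 to 27.5 in unshaded and from 9.14 to 24.5 in shaded roots. Its average was 0.08 ± 0.16 (0.723).

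**Figure D4:**
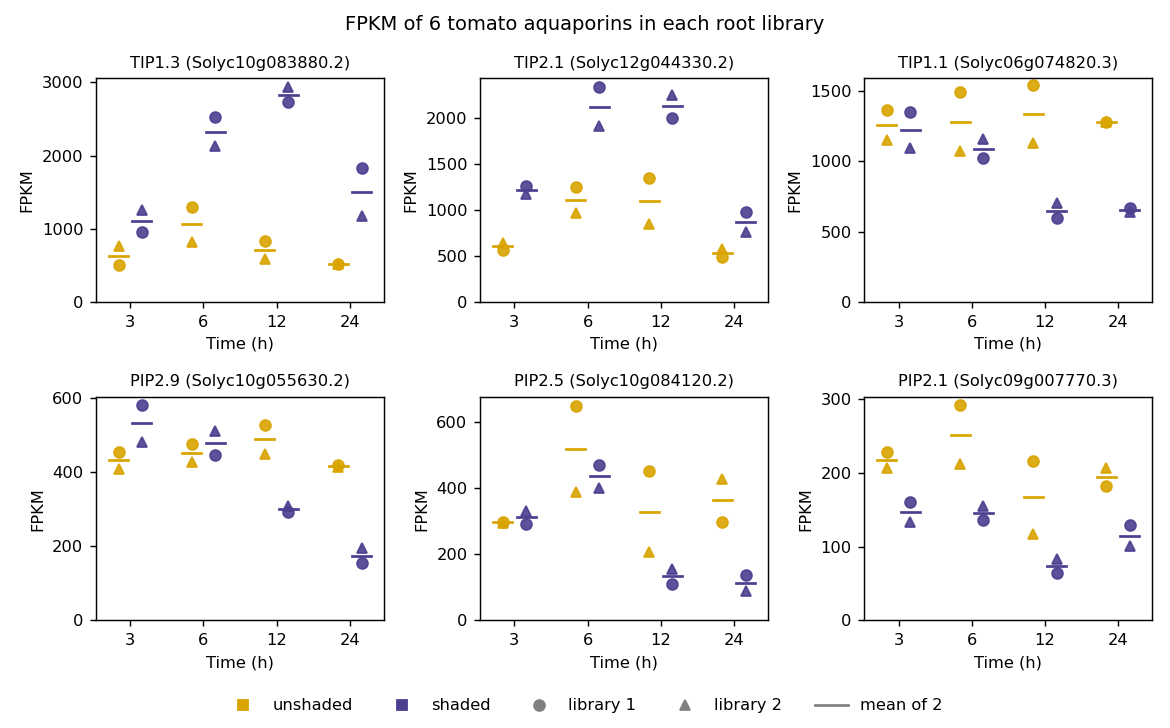
FPKM of 6 aquaporins in each of the 16 libraries, by time and light, with the mean of each pair as a line and the 2 libraries as circles (1) and triangles (2). TIP1.3 and TIP2.1 lie above the unshaded libraries in shade at every time, PIP2.1 lies below them at every time, and TIP1.1, PIP2.9 and PIP2.5 lie below them at 12 h and 24 h.

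Among the TIPs, 6 of the 9 tested passed in the average, 3 higher and 3 lower, where 39.2% of all genes passed, 18.2% higher and 20.9% lower. TIP1.3, TIP2.1 and TIP3.2 rose, and TIP1.1, TIP4.1 (Solyc08g066840.3) and TIP2.2 (Solyc03g120470.4) fell. The median average log2 fold change over the 9 was -0.29. Over all 16 libraries, the 3 rises were the only ones among the 22 tested aquaporins to pass in the average.

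TIP1.3, a TIP1 channel of the tonoplast, had the largest average rise of the 22 on the log2(FPKM + 1) scale, which understates changes of low genes such as TIP3.2. In unshaded roots it stood at 501 and 767 FPKM at 3 h, 1293 and 825 at 6 h, 839 and 586 at 12 h, and 522 and 519.6 at 24 h. In shaded roots it stood at 953 and 1251 at 3 h, 2521 and 2128 at 6 h, 2728 and 2933 at 12 h, and 1826 and 1173 at 24 h. Shaded libraries were above unshaded ones at all 4 times, with the widest gap at 12 h.

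For TIP1.3 the log2 fold change was 0.82 ± 0.30 at 3 h (adjusted p = 0.37) and 1.16 ± 0.30 at 6 h (0.0867). It was 2.01 ± 0.30 at 12 h (0.00156) and 1.49 ± 0.30 after 24 h (0.00393). The 12 h value is a 4.03-fold difference. The average was 1.37 ± 0.15 (adjusted p = 0.000106), and the interaction with time did not pass (0.237).

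TIP2.1, a TIP2 channel, had shaded libraries above unshaded ones at every time as well. Its unshaded values were 563 and 639 FPKM at 3 h, 1246 and 965 at 6 h, 1344 and 849 at 12 h, and 492 and 574 at 24 h. Its shaded values were 1252 and 1172, then 2333 and 1906, then 1998 and 2245, and at 24 h 972 and 755. Levels in both lights were higher at 6 h and 12 h than at 3 h and 24 h, although in unshaded roots the change with time did not pass (adjusted p = 0.126). Its log2 fold change was 1.01 ± 0.23 at 3 h (adjusted p = 0.136) and 0.94 at 6 h (0.0716). It was 0.99 at 12 h (0.0118) and 0.69 after 24 h (0.0361), with an average of 0.91 ± 0.11 (0.000246). With only the libraries of that time in the limma fit, TIP2.1 passed neither at 12 h (adjusted p = 0.0945) nor at 24 h (0.0693). Leaving out each library in turn put its log2 fold change between 0.66 and 1.32 at 12 h and between 0.51 and 0.87 at 24 h. Without both unshaded libraries that stood apart, the log2 fold change of TIP2.1 stayed at 1.01 at 3 h and was 1.13 at 6 h. Those libraries were picked by the aquaporin values themselves, so that fit is no separate test.

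TIP3.2 passed from a very low level. Its shaded values were 8.87 and 14.7 FPKM at 12 h against 0.362 and 2.59 in unshaded roots, and the groups were apart. At 3 h it stood at 0.183 and 5.15 in unshaded and at 1.33 and 1.00 in shaded roots, which overlapped. Its log2 fold change was 2.50 ± 0.64 at 12 h (adjusted p = 0.0182) and 1.04 ± 0.32 in the average (0.0248), on a scale that understates changes at such levels. With a pseudocount of 0.1 in place of 1, the 12 h value was 3.37 and did not pass (adjusted p = 0.0515). The 12 h value was 1.80 and did not pass without both unshaded libraries that stood apart (adjusted p = 0.121), nor without the unshaded 12 h library 1 alone (0.111). The average did not pass without both unshaded libraries that stood apart (0.82, adjusted p = 0.0828), nor without the shaded 6 h library 2, the unshaded 12 h library 1, the shaded 12 h library 2 or the unshaded 24 h library 2 alone (adjusted p between 0.0517 and 0.0596).

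TIP1.1, the TIP with the highest median in unshaded roots, fell at 12 h and 24 h. At 3 h and 6 h its groups overlapped, between 1024 and 1494 FPKM. At 12 h it stood at 1541 and 1126 in unshaded and at 595 and 700.3 in shaded roots, and at 24 h at 1282 and 1276 against 669 and 637. The groups were far apart at both late times. The log2 fold change was -1.03 ± 0.20 at 12 h (adjusted p = 0.00575) and -0.97 ± 0.20 at 24 h (0.00479), and the average was -0.56 ± 0.10 (0.00179).

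TIP4.1 fell with a like course. It stood at 122 and 86.8 FPKM in unshaded and 39.1 and 52.1 in shaded roots at 12 h, and at 116 and 124 against 70.2 and 62.7 at 24 h. Shaded libraries were lower at 6, 12 and 24 h and overlapped with unshaded ones at 3 h. Its log2 fold change was -1.17 ± 0.20 at 12 h (adjusted p = 0.00267) and -0.84 ± 0.20 at 24 h (0.00747).

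TIP2.2, a relative of TIP2.1, went the other way from it. At 12 h it stood at 195 and 109 FPKM in unshaded and at 86.7 and 84.4 in shaded roots, and at 24 h at 120.3 and 130.1 against 82.3 and 67.1. The groups were apart at both times, with shaded roots lower. As a log2 fold change this was -0.76 ± 0.24 at 12 h (adjusted p = 0.0405) and -0.74 ± 0.24 at 24 h (0.0316). Its 12 h value was -0.35 and did not pass without both unshaded libraries that stood apart (adjusted p = 0.126).

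TIP2.5, a low member of the same branch, passed at 24 h alone, lower in shade. There it stood at 7.71 and 12.4 FPKM in unshaded and at 2.61 and 3.47 in shaded roots (log2 fold change -1.43 ± 0.41, adjusted p = 0.019). Its groups overlapped at 3 h and 6 h. At 12 h they were apart, at 17.4 and 8.58 in unshaded and 7.35 and 8.09 in shaded roots (-0.61, adjusted p = 0.308). TIP2.3, at medians of 1137 in unshaded and 1019 in shaded roots, had an average of -0.29 ± 0.21 that did not pass (0.307). TIP1.2 (Solyc06g075650.3), at medians of 237 and 231, had an average of -0.18 ± 0.29 (0.663).

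Within the TIP1 and TIP2 branches, the shares of the genes differed between lights. TIP1.3 made up 24.3% and 34.9% of the summed FPKM of TIP1.1, TIP1.2 and TIP1.3 in unshaded roots at 3 h and 36.5% and 49.0% in shaded roots. At 12 h its share was 31.0% and 31.5% in unshaded and 79.4% and 76.6% in shaded roots, and at 24 h 26.1% and 25.1% against 66.4% and 60.7%. TIP1.1 was above TIP1.3 in all 8 unshaded libraries, and TIP1.3 was above TIP1.1 in every shaded library of 6, 12 and 24 h.

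In the TIP2 branch, TIP2.1 held 31.0% and 28.7% of the summed FPKM of TIP2.1, TIP2.2, TIP2.3 and TIP2.5 in unshaded roots at 3 h, against 50.3% and 52.9% in shaded roots. At 12 h it held 40.2% and 49.8% against 71.3% and 67.8%, and at 24 h 29.3% and 30.1% against 40.0% and 46.8%. TIP2.3 stood above TIP2.1 in both unshaded and both shaded libraries of 24 h. The unshaded and shaded shares overlapped at none of the 4 times in either branch. A share within 1 library does not depend on how that library was scaled. As TIP1.3 and TIP2.1 already lay higher in shade at all 4 times, the shares restate those values and are no separate test.

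**Figure D5:**
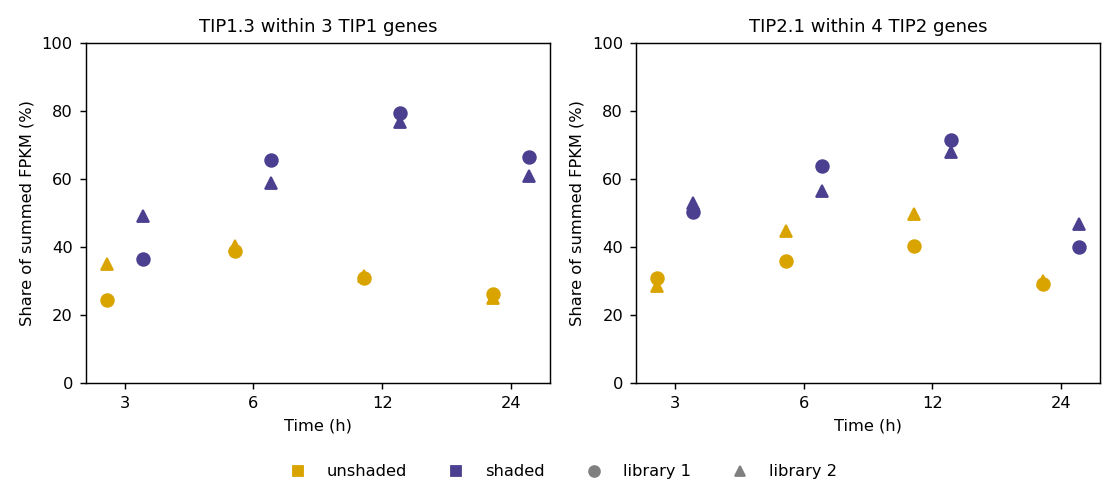
Share of TIP1.3 in the summed FPKM of 3 TIP1 genes (left) and of TIP2.1 in that of 4 TIP2 genes (right), in percent, for each library by time and light. Shaded libraries lie above unshaded ones at every time, with TIP1.3 at 79.4% and 76.6% in shade and at 31.0% and 31.5% without shade at 12 h.

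The share of each membrane's channels in the family sum differed as well. TIPs made up 37.8% and 35.1% of aquaporin FPKM in unshaded roots at 12 h and 47.1% and 46.6% in shaded roots, while PIPs made up 57.0% and 60.4% against 50.7% and 51.2%. At 24 h the PIP share was 59.0% and 60.5% in unshaded and 59.3% and 61.7% in shaded roots, which overlapped. At 12 h all TIPs together summed to 6175 and 3654 FPKM in unshaded and to 6287 and 7204 in shaded roots. Without TIP1.3 and TIP2.1 the TIPs summed to 3992 and 2219 in unshaded and to 1561 and 2026 in shaded roots. The other TIPs together were thus lower in shade at that time.

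All 4 aquaporins with no subfamily in the description had negative average effects (median of the 4, -0.52). Of these 4, 2 passed, where 39.2% of all genes passed in the average, 20.9% lower in shade. Solyc01g094690.4 stood at 314 and 172 FPKM in unshaded and 135 and 109 in shaded roots at 12 h, and at 195 and 192 against 107 and 98.1 at 24 h. Its groups overlapped at 3 h and were apart at 6, 12 and 24 h. Its log2 fold change was -0.93 ± 0.23 at 12 h (adjusted p = 0.0153), -0.91 ± 0.23 at 24 h (0.0108) and -0.53 ± 0.11 in the average (0.0045). Without both unshaded libraries that stood apart, its 12 h value was -0.50 and did not pass (0.0693).

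Solyc09g007760.4, whose identifier neighbours that of PIP2.1, stood at 116 and 70.9 FPKM in unshaded and at 30.3 and 49.4 in shaded roots at 12 h. It fell at 12 h (log2 fold change -1.21 ± 0.37, adjusted p = 0.0361) and in the average (-0.77 ± 0.18, 0.00761), and not at 24 h (-0.63, 0.198). The 12 h value did not pass without both unshaded libraries that stood apart (-0.86, adjusted p = 0.0891). How reads shared by similar aquaporins were assigned is not given in the sources used here, so the split of reads between close relatives is uncertain.

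Solyc08g008045.1 ranged from 196 to 551 FPKM in unshaded and from 109 to 359.9 in shaded roots. Its average of -0.50 ± 0.23 did not pass (adjusted p = 0.11). Its library 1 and library 2 values in unshaded roots differed widely at 6 h, at 551 and 196. The aquaporin-like gene Solyc08g077950.1 varied little, between 12.2 and 19.2 over all 16 libraries, with an average of -0.16 ± 0.09 (0.172).

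Time itself was compared within each light. In shaded roots 12 of 22 aquaporins changed with time, where 33% of all genes did, and 13 (59.1%) had an unadjusted p under 0.05, against 46.2% of all genes. In unshaded roots 0 of 22 passed, where 0.0637% of all genes did, and 4 (18.2%) had an unadjusted p under 0.05, against 11.3% of all genes. In shade PIP2.9 (adjusted p = 0.000882) and PIP1.7 (0.00131) passed with the smallest p, and TIP2.1 (0.00454), PIP2.5 (0.00672) and TIP2.5 (0.00688) followed. A change with time in one light and not in the other does not show that the lights differ, and the interaction test passed for PIP2.9 alone.

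Other genes of water and ion transport were chosen by description, and their counts stand beside the 18.2% of all genes that were higher and the 20.9% that were lower in the average. Of the 20 other major intrinsic proteins (nodulin-26-like, small basic and X intrinsic proteins), 11 were tested and 2 fell in the average, with a median log2 fold change of 0.03. SIP1.3 (Solyc10g078500.1), a small basic intrinsic protein, had medians of 70.3 FPKM in unshaded and 51.8 in shaded roots (-0.37 ± 0.08, adjusted p = 0.00391). NIP5.1 (Solyc08g013730.3), whose Arabidopsis relative takes up boric acid, had medians of 123 and 106 (-0.25 ± 0.07, 0.0214).

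Vacuolar proton pumps, which energise transport across the membrane that holds the TIPs, fell in 17 of 28 tested genes in the average and rose in none (median -0.19). At 12 h 18 fell (median -0.45), where 13.3% of all genes fell, and at 24 h 15 did (-0.39), where 21.4% of all genes did. A pyrophosphate-energised pump (Solyc12g009840.2) went from a median of 8.18 FPKM in unshaded to 4.51 in shaded roots (-0.85 ± 0.11, adjusted p = 0.000341). A V-type ATPase subunit C gene (Solyc03g097800.4) had medians of 101 and 74.8 (-0.35 ± 0.05, 0.000749). Of 9 plasma membrane proton pumps 1 reached the level for testing, Solyc06g071100.4, and it did not pass (-0.02 ± 0.06, 0.87).

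Potassium channels and transporters went both ways, with 9 of 28 higher and 5 lower in the average (median 0.13). Solyc06g050170.4 had medians of 19.6 FPKM in unshaded and 30.9 in shaded roots (0.67 ± 0.08, adjusted p = 0.000214). Abscisic acid is a hormone of the drought response. Its synthesis enzymes, the 9-cis-epoxycarotenoid dioxygenases, were all too low to test. Of 13 tested abscisic acid receptors, 5 rose and none fell in the average (median 0.12). The receptor gene Solyc06g061180.2 had medians of 26.1 and 41.3 (0.53 ± 0.07, 0.000267). The 1 dehydrin was too low to test.

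Markers of tissues moved with light as well. Over all genes 18.2% rose and 20.9% fell in the average. With genes described by root hair or root cap added to the Casparian strip genes, 5 of 9 tested rose in the average and 1 fell (median 0.43). Of the 6 tested Casparian strip genes alone 4 rose and none fell (median 0.47). Their summed FPKM at 3 h was 200 to 213 in unshaded and 287 to 340 in shaded libraries. At 12 h those sums were 211 to 320 and 307 to 335, which overlapped. Of the 33 tested green tissue genes 20 fell and none rose (median -0.74), and their sum at 12 h was 1173 to 2123 in unshaded and 661 to 875 in shaded libraries. The part of tissue makeup in the aquaporin differences was not tested.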

How the data were processed

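The authors deposited FPKM values for tomato in 1 table, and its 16 columns were matched to samples by title. Cufflinks 2.1.1 is named in the submitters' processing notes. The tomato genome build, the annotation, the aligner and any filter are not given in the sources used here, so no coordinates are printed. The Arabidopsis table is not used here. Short gene names such as PIP1.5 abbreviate the table's descriptions.

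Genes with a mean of at least 1 FPKM over the 16 libraries were tested on log2(FPKM + 1) with limma 3.58.1 in R 4.3.3, with 1 mean per group of light and time, all 8 groups sharing the spread, and an intensity trend. Fold changes are on this scale. Tests were two-sided, and Benjamini-Hochberg adjustment ran over all tested genes within each comparison, with a threshold of 0.05. Interaction and time effects were moderated F-tests. The fit was tested on simulated data. Relative depth came from ratios of low values (mean FPKM under 0.3, tolerance 0.004 on the log ratio), with a median of 22.1% of ratios on the commonest one. Plots used matplotlib 3.10.9.

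Members named with values were the 10 with the highest mean FPKM, the 13 called at any time or in the average, and the 3 uncalled ones with the largest average effect, and others are given briefly. Related lists name at most 3 genes with the smallest adjusted p. The members and lists were chosen with earlier results of these data known. X intrinsic proteins were added to the other major intrinsic proteins, and unrelated descriptions that matched by spelling were left out, after the table was seen.

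Alternatives were a pseudocount of 0.1, no filter, median-of-ratios scaling, scaling to equal sums, a fit to single comparisons, library numbers as a replicate block, and dropping every library in turn. Leaving out both unshaded libraries that stood apart was chosen after seeing the data.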

Additional observations from a re-analysis of the deposited data

Results flagged for a closer look

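The shade effect on PIP2.9 (Solyc10g055630.2) differed between time points by limma's test of the light by time interaction (adjusted p = 0.0192). Shaded libraries were above unshaded ones at 3 h and below them at 12 h and 24 h, with log2 fold changes of 0.30, -0.70 and -1.25. Groups held 2 libraries each, too few to look for single outlying samples.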

How the results depend on the processing

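Counts of called aquaporins stayed within 1.5 times the reported count in 54 of 60 recomputations that left out no library singly. With only the groups compared, 2 passed at 12 h, where 6.09% of all genes did. An alternative chosen after seeing the data left out both unshaded libraries that stood apart. In it the uncalled averages of PIP1.3 (Solyc12g056220.2) and PIP2.4 (Solyc06g011350.3) changed sign to 0.0035 and 0.013. The cause was not tested. Leaving out each library in turn gave 0 to 0 calls at 3 h, 0 to 1 at 6 h, 6 to 13 at 12 h, 3 to 10 at 24 h, 11 to 13 in the average, 0 to 4 in the interaction, 0 to 1 for time in unshaded and 7 to 13 for time in shaded roots. The median effect at 24 h moved to -0.78 without the shaded 24 h library 1. Same-numbered shaded and unshaded libraries did not deviate together (correlations across genes of 0.00498, 0.0556, -0.00372 and 0.0944 at 3, 6, 12 and 24 h), so the numbers were not taken as pairs. With the number as a replicate block, 12 aquaporins passed at 12 h, 10 after 24 h, 12 in the average and 1 in the interaction test. Of all genes, 23%, 36.7% and 38.7% passed at 12 h, after 24 h and in the average. With the replicate block within time points the aquaporin counts were 9, 8, 12 and 0. Of all genes, 19.2%, 33% and 35.1% passed there at 12 h, after 24 h and in the average. With no read counts, the precision of low genes such as TIP3.2 is unknown.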
